A study of Mus musculus with 12 samples.

Results

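The astrocyte and radial glia markers examined here were 10 genes fixed by name, namely Gfap, Aqp4, S100b, Aldoc, Slc1a2, Slc1a3, Gja1, Gjb6, Aldh1l1 and Fabp7. They were found by symbol in the table of raw counts, which held 9 of them among 17365 genes, and Gjb6 was not analysed here. All 9 were among the 13312 genes with enough counts to be tested. The 12 RNA-seq libraries came from mouse neural stem cells (NSCs) of the subventricular zone, the stem cell niche that lines the lateral ventricles of the adult brain. There were 2 lines, each a separate derivation from wild-type young adults of 6 to 8 weeks, grown adherent on laminin and used at low passage and low density. ANS4 came from the MF1 strain and BL6 is the line whose labels give C57BL/6. Each line was kept for 3 days in 1 of 3 conditions, with 2 biological replicas each. In EGF/FGF, the proliferating condition, the medium held EGF and FGF2 at 10 ng/ml each. In BMP it held BMP4 at 10 ng/ml with neither mitogen, and in BMP/FGF it held BMP4 and FGF2 at 10 ng/ml each without EGF. The study treats the BMP cells as dormant quiescent and the BMP/FGF cells as primed quiescent. Each condition therefore had 4 libraries, and since a line is a single derivation, p-values measure the spread between these libraries and not between animals.

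Astrocytes clear glutamate and potassium from the synaptic space, move water through channels at their endfeet and couple to each other through gap junctions. Adult neural stem cells of the subventricular zone descend from radial glia and keep many astrocyte transcripts, GFAP among them, so these genes mark a shared glial programme and do not by themselves separate a stem cell from a mature astrocyte. BMP signals are a classical cue for quiescence of these cells and also for astrocyte differentiation, while EGF and FGF2 sustain division.

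Library totals lay between 18069052 and 19451818 estimated counts, so that 1 count was worth 0.0514 to 0.0553 CPM, the level used here, which is the count per 1000000 counts of the library after scaling by TMM (the trimmed mean of M-values). Replicate pairs differed by more than counting error in every line and condition, with chi-square values of 2.14 to 12.4 per degree of freedom, the highest in the BL6 BMP pair. The 9 markers took 0.541% ± 0.0378 of all counts in EGF/FGF, 0.922% ± 0.113 in BMP and 1.31% ± 0.0229 in BMP/FGF (SD, n = 4). Every radial glia gene of a further list of 20 was tested, so markers of the labelled cell type were present. In bulk RNA, fewer cells of a type and less RNA per cell cannot be told apart.

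Most of the markers were higher in both quiescent conditions than in EGF/FGF, and Fabp7 was lower in both. In BMP, 7 of 9 markers were higher and 1 was lower than in EGF/FGF at a false discovery rate (FDR) under 0.05, where 40.8% of all tested genes were higher and 38.8% lower. Of these, 6 were higher and 1 lower by more than 1.5 on the log2 scale, against 10.9% and 6.95% of all genes. The study set this threshold for the genes it put into gene ontology enrichment. In BMP/FGF, 8 were higher and 1 lower than in EGF/FGF (40.9% and 38.0% of all genes), and 7 were higher past the threshold (10.6% of all genes). In BMP/FGF against BMP, 7 were higher and 0 lower (20.1% and 21.3% of all genes), with Fabp7 alone past the threshold (0.901% of all genes). The median log2 fold change of the 9 markers was 1.72, 1.93 and 0.42 in the 3 comparisons in this order, beside 0.02, 0.02 and -0.0035 over all tested genes. The 4 libraries of each condition did not overlap at 8, 9 and 7 of the 9 markers. The share of all tested genes without overlap was not counted, so these numbers do not set the markers apart from other genes. These comparisons share libraries, so their values are set side by side and not correlated with each other.

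**Figure D1:**
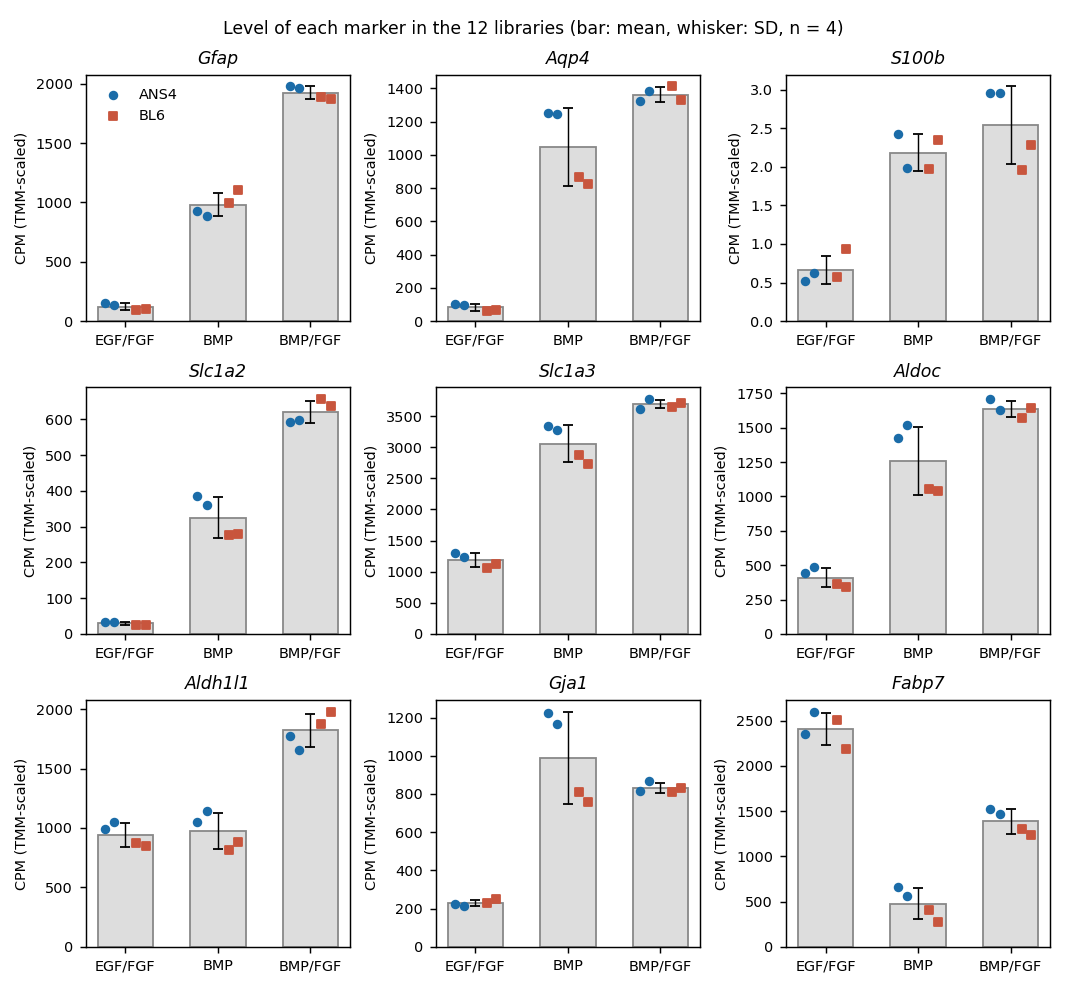
Level of each marker in CPM (TMM-scaled, linear axes from 0) in the 3 conditions. Circles are ANS4 libraries and squares BL6 libraries, with 2 of each per condition. Bars are means and whiskers SD over 4 libraries. Fabp7 was highest in EGF/FGF, Aldh1l1 was raised in BMP/FGF only, and the lines lay apart at most markers in BMP and close together in BMP/FGF.

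**Figure D2:**
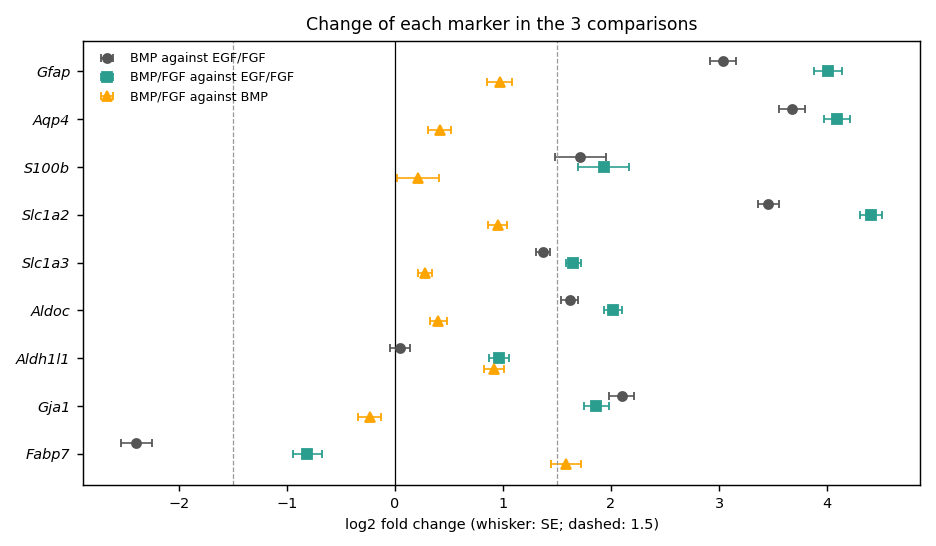
Log2 fold change of each marker in the 3 comparisons, with whiskers for the SE of the edgeR fit over 12 libraries and dashed lines at 1.5 in either direction. Slc1a2, Aqp4 and Gfap lay farthest to the right against EGF/FGF, from 3.04 to 4.41, and Fabp7 was the marker with negative values against EGF/FGF.

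Gfap (chr11:102887336-102900912, minus strand, GRCm38) encodes the intermediate filament protein of astrocytes and of adult neural stem cells. Its levels in EGF/FGF were 155 and 133 CPM in ANS4 and 92.1 and 103 CPM in BL6. In BMP they were 926 and 889 CPM in ANS4 and 997 and 1108 CPM in BL6. BMP/FGF gave 1979 and 1963 CPM in ANS4 and 1893 and 1869 CPM in BL6. The 3 conditions thus formed 3 separate steps without overlap. Gfap rose by 3.04 ± 0.12 (log2, SE) in BMP (adjusted p = 1.86e-13) and was a further 0.97 ± 0.11 higher in BMP/FGF than in BMP (adjusted p = 3.47e-06), which made it 16.1-fold higher in BMP/FGF than in EGF/FGF.

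Aqp4 (chr18:15389496-15410982, minus strand), the water channel of astrocyte endfeet, had 105 and 97.2 CPM in ANS4 and 58.6 and 68.9 CPM in BL6 in EGF/FGF. Its BMP levels were 1254 and 1248 CPM in ANS4 and 869.6 and 825 CPM in BL6. In BMP/FGF all 4 libraries lay between 1324 and 1413 CPM. The step out of EGF/FGF was therefore large in both lines, whereas the step from BMP to BMP/FGF was visible mainly in BL6. Aqp4 was 12.8-fold higher in BMP and 17.1-fold higher in BMP/FGF than in EGF/FGF (log2 3.68 ± 0.12 and 4.09 ± 0.12, adjusted p = 1.09e-14 and 3.81e-15). The difference between BMP/FGF and BMP was 0.42 ± 0.11 (adjusted p = 0.00483), and it was not called in ANS4 alone (0.11, adjusted p = 0.112) or without the line term (0.38, adjusted p = 0.0703).

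S100b (chr10:76253853-76261159, plus strand), a calcium-binding protein of mature astrocytes and ependymal cells, was at the lower end of what these libraries could measure. It had 10 to 18 counts per EGF/FGF library, 36 to 45 per BMP library and 35 to 55 per BMP/FGF library. Both quiescent conditions lay above EGF/FGF in every library, at 0.660 ± 0.185 CPM in EGF/FGF against 2.18 ± 0.237 in BMP and 2.54 ± 0.504 in BMP/FGF (SD, n = 4). S100b was higher by 1.72 ± 0.24 and 1.93 ± 0.23 (adjusted p = 2.85e-06 and 5.59e-07). On the authors' regularised log2 values, limma gave 0.93 and 1.06 (adjusted p = 2.27e-06 and 5.12e-07), under the 1.5 threshold, and BL6 alone gave 1.496 and 1.475, also under it. BMP and BMP/FGF overlapped, and their difference of 0.21 ± 0.19 did not pass the test (adjusted p = 0.395). The summed level of 11 ependymal genes was also higher in both quiescent conditions than in EGF/FGF, where it was 79.1 to 98.3 CPM. It was 254 to 302 CPM in the BMP libraries and 259 to 269.9 CPM in those of BMP/FGF, and its part in the S100b result was not tested. Most of this sum came from Foxj1, with means of 59.7, 194 and 181 CPM in EGF/FGF, BMP and BMP/FGF.

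The glutamate transporters changed by unequal amounts. Slc1a2 (chr2:102658659-102790784, plus strand) encodes GLT-1, the transporter that takes up most synaptic glutamate in the mature forebrain, and Slc1a3 (chr15:8634124-8710764, minus strand) encodes GLAST, the transporter that radial glia already carry. Slc1a2 in EGF/FGF had 34.0 and 32.3 CPM in ANS4 and 25.8 and 26.2 CPM in BL6. The BMP libraries held 386 and 360.3 CPM in ANS4 and 275 and 279 CPM in BL6. In BMP/FGF the levels were 592 and 598 CPM in ANS4 and 656 and 636 CPM in BL6. BL6 was the lower line in EGF/FGF and BMP and the upper line in BMP/FGF. In BMP/FGF this line difference was not called by edgeR (0.12 ± 0.06, adjusted p = 0.401). Slc1a2 rose at both steps with no overlap. It was 11.0-fold higher in BMP (3.46 ± 0.10, adjusted p = 2.50e-15) and 21.2-fold higher in BMP/FGF than in EGF/FGF (4.41 ± 0.10, adjusted p = 3.07e-16), the rise that ranked 102nd of 13312 genes. BMP/FGF exceeded BMP by 0.95 ± 0.09 (adjusted p = 2.56e-07).

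Slc1a3 started from a higher level and moved less. It ranged from 1054 to 1306 CPM in EGF/FGF, from 2728 to 3346 in BMP and from 3622 to 3774 in BMP/FGF, again without overlap. Its changes were 1.37 ± 0.07, 1.65 ± 0.07 and 0.28 ± 0.07 in the 3 comparisons (adjusted p = 2.52e-12, 2.27e-13 and 0.00276), the last being 0.16 in ANS4 alone and 0.40 in BL6 alone. The count ratio within a library, which does not depend on scaling between libraries, was 2.50 ± 0.133 Slc1a2 counts per 100 Slc1a3 counts in EGF/FGF, 10.6 ± 0.870 in BMP and 16.8 ± 0.927 in BMP/FGF (SD, n = 4). No 2 conditions overlapped. The log2 ratio was higher by 2.08 in BMP and by 2.75 in BMP/FGF than in EGF/FGF, and by 0.67 in BMP/FGF than in BMP. Each of the 3 differences had a two-sided exact permutation p of 0.0286, the smallest that 70 divisions of 8 libraries allow, and 0.0286 after adjustment over the 3. The divisions mixed the lines freely, and a test dividing within each line was not run.

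**Figure D3:**
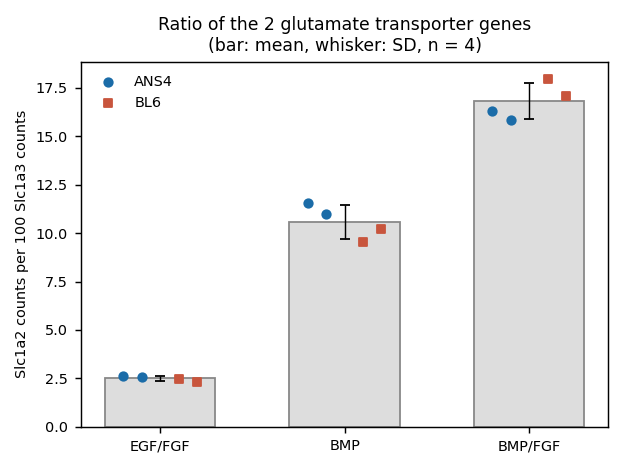
Slc1a2 counts per 100 Slc1a3 counts in each library, with circles for ANS4 and squares for BL6 (bars are means and whiskers SD, n = 4). The libraries lay between 2.33 and 2.61 in EGF/FGF, between 9.57 and 11.6 in BMP and between 15.8 and 18.0 in BMP/FGF.

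The metabolic markers differed from each other. Aldoc (chr11:78322968-78327781, plus strand), the brain form of the glycolytic enzyme aldolase, ranged from 344 to 488 CPM in EGF/FGF, from 1043 to 1517 in BMP and from 1571 to 1708 in BMP/FGF. It was higher in BMP by 1.62 ± 0.08 (adjusted p = 3.87e-12), higher in BMP/FGF by 2.02 ± 0.08 (adjusted p = 2.25e-13), and 0.40 ± 0.08 higher in BMP/FGF than in BMP (adjusted p = 0.00068). That last difference was 0.18 in ANS4 alone and 0.62 in BL6 alone.

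Aldh1l1 (chr6:90486427-90600203, plus strand), the folate enzyme used as a broad astrocyte marker, was the marker that did not pass the test in BMP. It had 993 and 1052 CPM in ANS4 and 870.5 and 846 CPM in BL6 in EGF/FGF. In BMP it had 1048 and 1143 CPM in ANS4 and 817 and 882 CPM in BL6. BMP/FGF gave 1778 and 1656 CPM in ANS4 and 1877 and 1976 CPM in BL6. EGF/FGF and BMP overlapped, with the lines apart in each, and every BMP/FGF library was above both. The BMP difference was 0.05 ± 0.09 (adjusted p = 0.652), with 0.10 in ANS4 and -0.01 in BL6. BMP/FGF was higher by 0.96 ± 0.09 than EGF/FGF (adjusted p = 2.12e-08) and by 0.92 ± 0.09 than BMP (adjusted p = 4.98e-07).

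Gja1 (chr10:56377330-56402513, plus strand) encodes connexin 43, the main gap junction protein of astrocytes and radial glia. Its EGF/FGF levels were 221 and 212 CPM in ANS4 and 227 and 249 CPM in BL6. BMP gave 1223 and 1167 CPM in ANS4 and 811 and 756 CPM in BL6. The BMP/FGF libraries had 814 and 866 CPM in ANS4 and 811 and 833 CPM in BL6. All quiescent libraries were above all EGF/FGF libraries, and within BMP the ANS4 pair stood above the rest. Gja1 was higher by 2.10 ± 0.11 in BMP (adjusted p = 1.07e-11) and by 1.86 ± 0.11 in BMP/FGF (adjusted p = 5.15e-11) than in EGF/FGF. It was the only marker with a negative estimate for BMP/FGF against BMP, -0.23 ± 0.11, which did not pass the test (adjusted p = 0.0969). In ANS4 alone the difference was -0.51 (adjusted p = 6.16e-06) and in BL6 alone 0.07 (adjusted p = 0.450), while it was called at -0.31 (adjusted p = 0.0497) or -0.34 (adjusted p = 0.0174) when BL6 BMP replicate 1 or replicate 2 was left out, and at -0.28 (adjusted p = 0.0426) when scaled by library size alone.

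Fabp7 (chr10:57784881-57788450, plus strand), the brain fatty acid-binding protein and a radial glia marker, moved the opposite way to most of the set. Its EGF/FGF levels were 2356 and 2595 CPM in ANS4 and 2502 and 2184 CPM in BL6. In BMP it had 665 and 557 CPM in ANS4 and 402 and 277 CPM in BL6. The levels in BMP/FGF were 1528 and 1469 CPM in ANS4 and 1306 and 1238 CPM in BL6. BMP was lowest, EGF/FGF highest and BMP/FGF between them, with no overlap. Fabp7 was 5.25-fold lower in BMP than in EGF/FGF (log2 -2.39 ± 0.14, adjusted p = 3.55e-11) and 1.75-fold lower in BMP/FGF (-0.81 ± 0.14, adjusted p = 2.97e-05). BMP/FGF was 2.99-fold above BMP (1.58 ± 0.14, adjusted p = 1.30e-07), which ranked 115th of 13312 genes. On the mean log2 CPM scale the BMP/FGF change from EGF/FGF was 33.2% of the BMP change for Fabp7 and 89.5% for Gja1, against 111% for Aqp4, 112% for S100b, 120.3% for Slc1a3, 125% for Aldoc, 127% for Slc1a2 and 132% for Gfap. Aldh1l1 is left out because its BMP change of 0.04 is too small to divide by.

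RefSeq promoter sequence on GRCm38.p6 covered 8 of the 9 markers, as up to 250 bases ahead of a transcript start. Gfap rose at both steps and Fabp7 fell. Gja1 rose in both quiescent conditions, and its lower estimate in BMP/FGF than in BMP was not called. The stretches of these 3 genes are printed for their different courses. Each runs 5′ to 3′ on the strand of its gene, in lower case, with matches to the searched motifs in capitals, and stops ahead of the first annotated protein-coding start. They are chr11:102897201-102897450 (minus strand), chr10:56377050-56377299 (plus strand) and chr10:57784673-57784880 (plus strand).
Gfap: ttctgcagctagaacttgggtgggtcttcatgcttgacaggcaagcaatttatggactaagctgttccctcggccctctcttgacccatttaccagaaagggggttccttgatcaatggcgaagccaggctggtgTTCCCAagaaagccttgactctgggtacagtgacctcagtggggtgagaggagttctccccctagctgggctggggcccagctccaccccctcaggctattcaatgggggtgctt
Gja1: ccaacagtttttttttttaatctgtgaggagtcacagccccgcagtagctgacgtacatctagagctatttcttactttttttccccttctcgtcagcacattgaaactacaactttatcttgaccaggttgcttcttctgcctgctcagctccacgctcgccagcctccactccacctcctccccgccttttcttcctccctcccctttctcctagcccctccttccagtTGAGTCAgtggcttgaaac
Fabp7: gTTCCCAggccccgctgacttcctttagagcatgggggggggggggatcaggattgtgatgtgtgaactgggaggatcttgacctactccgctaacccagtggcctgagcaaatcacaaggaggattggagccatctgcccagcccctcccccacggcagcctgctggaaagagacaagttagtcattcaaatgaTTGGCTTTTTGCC
The capitals in Gfap and at the start of the Fabp7 stretch are the RBPJ core TGGGAA read on the opposite strand, which 21.6% of all 32851 windows hold on either strand. It was in 5 of the 8 markers (Aldh1l1, Aldoc, Fabp7, Gfap and S100b). Unlike the shares of windows, markers were counted by gene with a match in any window, and Aldoc had more than a single window. The AP-1 motif TGANTCA, held by 6.75% of windows, was in Gja1 alone, 19 to 13 bases ahead of the RefSeq start. The nuclear factor I motif, TTGGC and GCC set 5 bases apart, held by 1.22% of windows, was in Fabp7 alone, 55 to 43 bases ahead of the RefSeq start. The STAT motif TTCNNNGAA (7.02% of windows) was in Aldoc and Slc1a3, and the GC-rich SMAD motif GGCGCC (9.59%) was in 0 of the 8. In Aldoc the STAT motif and the RBPJ core did not share bases. Both strands were searched, and a match describes letters only.

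The order of the markers was compared per length, as CPM per kilobase of the longest protein-coding transcript. In EGF/FGF, Fabp7 stood at 2738 ± 204, ahead of Slc1a3 at 284 ± 27.3 and Aldh1l1 at 225 ± 23.6 (SD, n = 4), and Slc1a2 and S100b were lowest at 2.55 ± 0.364 and 0.445 ± 0.124. No neighbours in this order overlapped. In BMP the order was led by Slc1a3 at 734 ± 72.2, and the ranges of neighbours from Slc1a3 through Fabp7, Aldoc, Gfap, Gja1 and Aldh1l1 to Aqp4 at 208 ± 46.3 overlapped. In BMP/FGF, Fabp7 was again first at 1574 ± 154, followed by Slc1a3 at 887 ± 16.2 and Gfap at 727 ± 20.1, and Aqp4 and Gja1, at 269.5 ± 8.53 and 261 ± 8.05, overlapped. With the median length of protein-coding transcripts in place of the longest, Aqp4 moved from 7th to 2nd in BMP and from 6th to 3rd in BMP/FGF, while Slc1a3 remained first in BMP, Fabp7 first in the other conditions and S100b last in all 3.

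The lines differed at most markers in EGF/FGF and BMP and at none by this test in BMP/FGF. In EGF/FGF, 6 of 9 levels differed between BL6 and ANS4 (6.75% of all genes), all 6 lower in BL6, with Aqp4 (-0.66 ± 0.08, adjusted p = 4.92e-05) and Gfap (-0.56 ± 0.08, adjusted p = 0.000336) the farthest apart. In BMP, 8 of 9 differed (23.0% of all genes), 7 lower and Gfap higher in BL6. Fabp7 (-0.85 ± 0.12, adjusted p = 9.40e-05) and Gja1 (-0.61 ± 0.06, adjusted p = 3.47e-06) differed the most, whereas the call of Gfap (0.21 ± 0.07, adjusted p = 0.0421) was lost under 8 of 17 alternatives, with adjusted p-values of 0.00759 to 0.210 over them and a value of 0.14 without BL6 BMP replicate 2. In BMP/FGF, 0 of 9 differed by edgeR (0.736% of all genes) and 0 by DESeq2. Aldh1l1 alone had an unadjusted p under 0.05 in the edgeR fit, at 0.0184 (adjusted p = 0.267). The median absolute line difference of the markers was 0.35, 0.43 and 0.07 in EGF/FGF, BMP and BMP/FGF, beside 0.13, 0.17 and 0.10 over all genes. The count in EGF/FGF fell to 3 when ANS4 EGF/FGF replicate 1, BL6 EGF/FGF replicate 1 or BL6 EGF/FGF replicate 2 was left out.

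**Figure D4:**
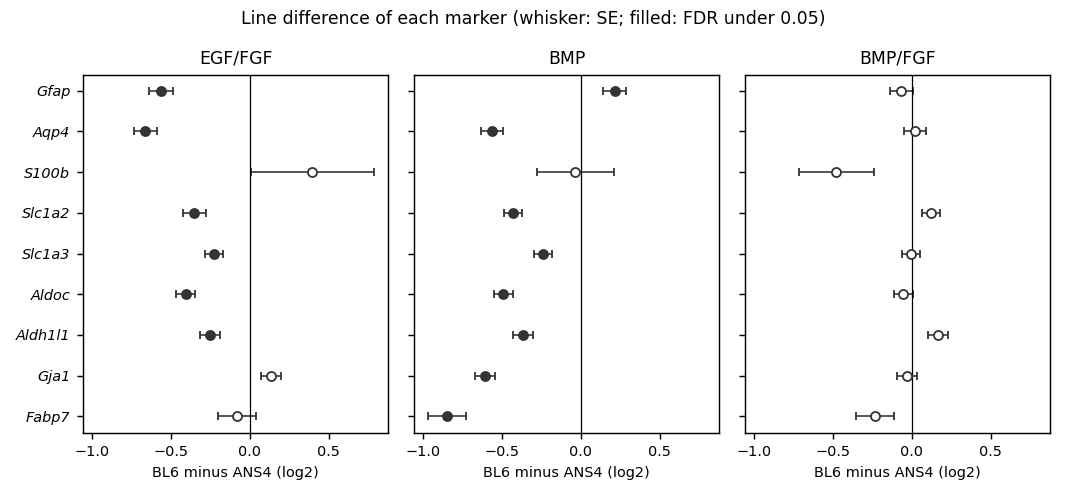
Difference in level between the lines (BL6 minus ANS4, log2) for each marker in the 3 conditions, with whiskers for the SE and filled points at an FDR under 0.05. There were 6 filled points in EGF/FGF, 8 in BMP and 0 in BMP/FGF, where S100b, at 35 to 55 counts per library, had the widest whisker.

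The changes themselves were also tested for a line difference. Each value is the line difference of level in the second condition named minus that in the first. It is therefore not separate from the levels above. From EGF/FGF to BMP, 3 of 9 markers changed by unequal amounts (9.02% of all genes). Gfap rose by 3.43 in BL6 and 2.66 in ANS4, Gja1 rose by 1.72 and 2.46, and Fabp7 fell by 2.79 and 2.02. The Fabp7 difference lost its call without ANS4 EGF/FGF replicate 1 (-0.70, adjusted p = 0.0511) or BL6 EGF/FGF replicate 1 (-0.67, adjusted p = 0.0547), which left 2 of 9. From EGF/FGF to BMP/FGF, 5 of 9 differed (4.98% of all genes), namely Aqp4, Gfap, Slc1a2, Aldh1l1 and Aldoc. They were lower in BL6 in EGF/FGF and not called between the lines in BMP/FGF. All 5 rose more in BL6. This count was 2 or 3 without either replicate of BMP/FGF in either line, ANS4 EGF/FGF replicate 2, or either replicate of BL6 EGF/FGF. From BMP to BMP/FGF, 6 of 9 differed (13.5% of all genes), with the larger change in BL6 for Aldh1l1 (1.18 against 0.65), Slc1a2 (1.22 against 0.67), Aqp4 (0.69 against 0.11), Aldoc (0.62 against 0.18) and Fabp7 (1.90 against 1.29), and 0.07 against -0.51 for Gja1. All 6 were lower in BL6 in BMP and not called between the lines in BMP/FGF. The Fabp7 difference of 0.61 lost its call under 7 of 17 alternatives, with adjusted p-values of 5.85e-05 to 0.103 over them. It was 0.37 (adjusted p = 0.0400) without BL6 BMP replicate 2 and 0.91 (adjusted p = 5.85e-05) without replicate 1.

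Among 28 further astrocyte genes, 26 were tested. In BMP, 23 were higher and 3 lower than in EGF/FGF, with a median log2 fold change of 1.67 (40.8% and 38.8% of all genes). Sparcl1, a matricellular protein of astrocytes, had 397 CPM in BMP against 6.69 in EGF/FGF (5.89 ± 0.15, adjusted p = 7.26e-16), and the claudin gene Cldn10 had 7.82 against 0.103 CPM, the latter being at most 4 counts in a library. The GABA transporter gene Slc6a11 (-0.67 ± 0.08, adjusted p = 3.75e-07) and the potassium channel gene Kcnj10 (-0.67 ± 0.07, adjusted p = 1.05e-07) were lower. In BMP/FGF, 25 were higher and 1, Kcnj10, lower than in EGF/FGF (-0.18 ± 0.07, adjusted p = 0.0269), with a median of 2.06, where 40.9% of all genes were higher and 38.0% lower. Sparcl1 and Cldn10 again had the largest rises, at 254 and 7.75 CPM. Between BMP/FGF and BMP, 15 were higher, 3 lower and 8 not called, with a median of 0.22, where 20.1% of all genes were higher and 21.3% lower. Slc6a11 (1.11 ± 0.08, adjusted p = 1.22e-08) and Dio2, the deiodinase that activates thyroid hormone (0.81 ± 0.13, adjusted p = 9.46e-05), rose the most. Clu, which encodes clusterin, was lower (-0.89 ± 0.09, adjusted p = 8.94e-07), and the thyroid hormone transporter gene Slco1c1 was lower at 0.550 against 1.14 CPM (-1.05 ± 0.27, adjusted p = 0.00512).

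The 20 further radial glia genes moved in both directions, in shares near those of all tested genes on the lower side. In BMP, 11 were higher and 8 lower than in EGF/FGF with a median of 0.24 (40.8% and 38.8% of all genes), and in BMP/FGF 11 were higher and 7 lower with a median of 0.23 (40.9% and 38.0% of all genes). The extracellular matrix gene Tnc was 135-fold lower in BMP (12.6 against 1699 CPM, adjusted p = 2.12e-20) and 106-fold lower in BMP/FGF (16.0 CPM, adjusted p = 3.51e-20). Nes, which encodes the intermediate filament nestin, was 4.50-fold and 4.92-fold lower (adjusted p = 3.49e-14 and 1.80e-14). On the rising side, the 2 largest rises in BMP and the 2 largest in BMP/FGF, each against EGF/FGF, fell on Prom1, Hopx and Fam107a. Other genes of the list were also higher in both quiescent conditions, Vim and Sox2 among them. Prom1, which encodes the stem cell surface protein prominin, was higher by 1.27 ± 0.07 in BMP and by 0.30 ± 0.07 in BMP/FGF (adjusted p = 2.02e-11 and 0.00154). Hopx was higher by 1.11 ± 0.13 and 2.58 ± 0.13 (adjusted p = 4.92e-07 and 2.33e-12), and Fam107a by 1.69 ± 0.26 and 1.41 ± 0.27 (adjusted p = 1.10e-05 and 0.000112). Fam107a was low, with means of 0.751, 2.42 and 2.00 CPM in EGF/FGF, BMP and BMP/FGF and at most 21 counts in an EGF/FGF library. Between BMP/FGF and BMP, 5 were higher, 4 lower and 11 not called, with a median of -0.04, against 20.1% higher and 21.3% lower of all genes, so these counts are close to the background. Hopx (1.47 ± 0.12, adjusted p = 3.66e-08) and Mfge8 (1.00 ± 0.09, adjusted p = 1.23e-07) were higher, and Prom1 (-0.98 ± 0.07, adjusted p = 1.68e-08) and Notch2, a Notch receptor (-0.66 ± 0.08, adjusted p = 3.62e-06), were lower.

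**Figure D5:**
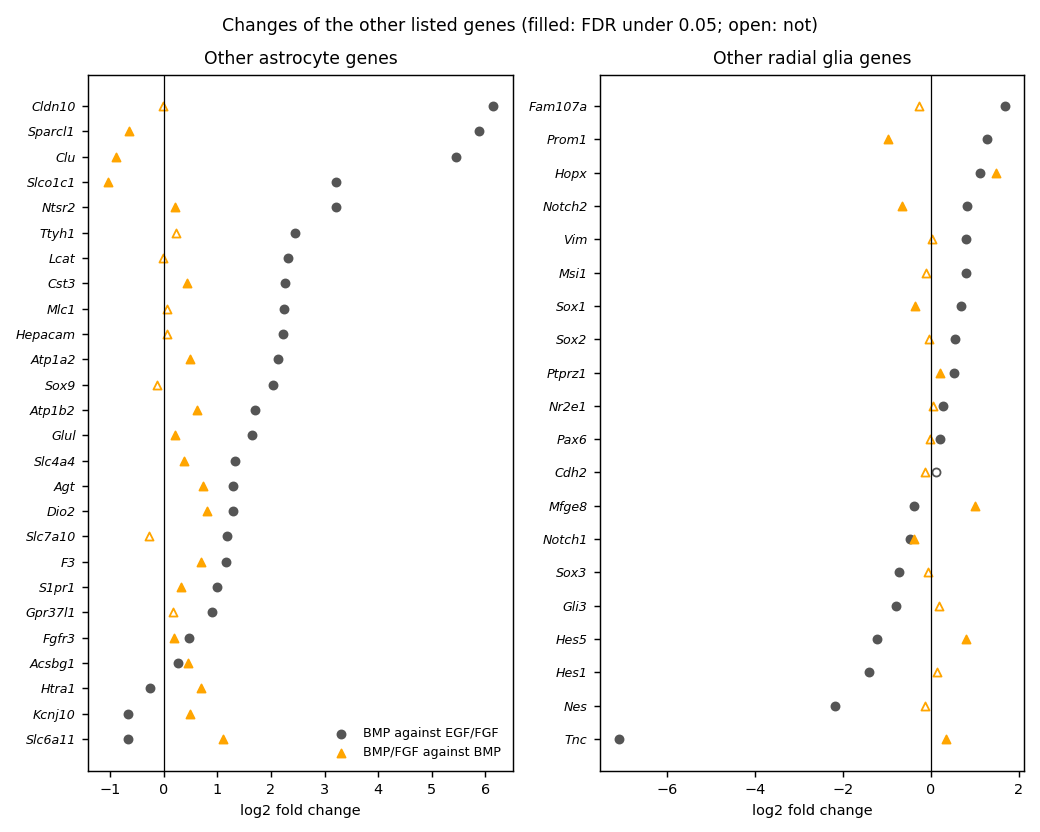
Log2 fold change of the tested genes of the further astrocyte list (left, 26 genes) and radial glia list (right, 20 genes), ordered by BMP against EGF/FGF (circles), with BMP/FGF against BMP as triangles. Filled symbols passed an FDR of 0.05. Nearly all astrocyte circles lie right of 0, 23 of 26, while the radial glia circles lie on both sides, with Tnc at -7.08.

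Genes of other cell types were counted beside the markers, and their part in the marker results was not tested. Of all tested genes, 40.8% were higher and 38.8% lower in BMP than in EGF/FGF, 40.9% and 38.0% in BMP/FGF than in EGF/FGF, and 20.1% and 21.3% in BMP/FGF than in BMP. Of 11 tested neuron and neuroblast genes, 9 were higher and 2 lower in BMP than in EGF/FGF, the same counts held in BMP/FGF, and all 11 were lower in BMP/FGF than in BMP. The EGF/FGF libraries held 782 to 820 CPM of this list, the BMP libraries 1544 to 2432 and the BMP/FGF libraries 1090.2 to 1174. Map2 was the largest part of this sum, with means of 554, 958 and 808 CPM in EGF/FGF, BMP and BMP/FGF. Of 8 tested ependymal genes, 7 and 6 were higher and 0 lower in BMP and BMP/FGF, and 3 were lower in BMP/FGF than in BMP. The oligodendrocyte list had 5 of 8 higher and 3 lower in either quiescent condition, and 1 higher and 2 lower in BMP/FGF than in BMP, with sums of 1268 to 1892 CPM over all libraries, and its counts of lower genes were near these shares. Microglia genes summed to 5.31 to 14.9 CPM, and Csf1r and Fcer1g were at 0 in every BMP library. Endothelial and mural genes summed to 11.8 to 50.3 CPM, of which 5 were tested, 3 of them higher and 1 lower in each comparison. All 10 proliferation genes were lower in each of the 3 comparisons, with medians of -2.59, -3.57 and -0.79.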

How the data were processed

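Total RNA was sequenced on the BGISEQ platform as a low-input library. Per the submitters' processing notes and the study's methods, reads were trimmed with Trim Galore 0.5.0 and quantified with kallisto 0.44.0 on mm10 transcripts, estimates were summed to genes with tximport, and DESeq2 1.27.32 was used. The raw table holds the authors' estimated counts per gene, whole numbers as deposited, so that rounding changed nothing. The second table holds log2 values, a regularised log transform deposited by the authors, and served only as an alternative. Of 17365 genes, 13312 passed edgeR's count filter and 4053 were not tested.

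Changes were fitted with edgeR 4.0.16 (R 4.3.3) by the quasi-likelihood test on TMM-scaled counts, with condition and line as terms over all 12 libraries, and Benjamini-Hochberg adjustment over all tested genes. SE values are the absolute log2 fold change divided by the square root of F. Line differences used means of the 6 line and condition groups. CPM are TMM-scaled. The Slc1a2 to Slc1a3 ratio used an exact permutation test over 8 libraries with 0.5 added to counts, for 3 comparisons, since the second planned ratio needed Gjb6. The exact test could not go below 0.0286 and did not take the line into account. Alternatives used DESeq2 1.42.0, limma 3.58.1 on the log2 table, other scaling, no filter, no line term, a replicate block, fewer libraries, each line by itself, and the omission of each library. Genes named beyond the markers were, in each comparison and further list, the 2 largest rises and 2 largest falls at an FDR under 0.05, and for each marker the 3 genes with the most similar profile with genes under a mean of 1 CPM set aside. The markers, lists and tests were chosen with earlier results of these data known. Promoters came from RefSeq, gene positions from GENCODE. The tests were checked on simulated data. Counting error is small for most named genes at 18069052 or more counts per library. It is larger for S100b and for other low genes such as Cldn10, Slco1c1 and Fam107a. Estimated counts split reads between similar transcripts by a model. The Aqp4 promoter was not analysed here.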

Additional observations from a re-analysis of the deposited data

Results flagged for a closer look

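The change of a marker differed between the lines in 14 of 27 tests, as the change in BL6 minus the change in ANS4 in edgeR's quasi-likelihood test. Of all tested genes, 9.02% differed in the change from EGF/FGF to BMP, 4.98% from EGF/FGF to BMP/FGF and 13.5% from BMP to BMP/FGF. The 27 tests are 9 markers in 3 comparisons that share libraries, and each follows from the line differences in level within the conditions compared. The 14 marker differences are therefore not separate results. From EGF/FGF to BMP these differences were 0.78 ± 0.11 for Gfap (adjusted p = 0.000255), -0.74 ± 0.09 for Gja1 (adjusted p = 8.58e-05) and -0.77 ± 0.17 for Fabp7 (adjusted p = 0.00925, or 0.0511 and 0.0547 without ANS4 or BL6 EGF/FGF replicate 1). From EGF/FGF to BMP/FGF they were 0.68 ± 0.10 for Aqp4 (adjusted p = 0.000982), 0.49 ± 0.11 for Gfap (adjusted p = 0.0133), 0.47 ± 0.09 for Slc1a2 (adjusted p = 0.00751), 0.42 ± 0.09 for Aldh1l1 (adjusted p = 0.0133) and 0.35 ± 0.09 for Aldoc (adjusted p = 0.0256). From BMP to BMP/FGF they were 0.61 ± 0.17 for Fabp7 (adjusted p = 0.0241, with 0.37 and 0.91 without BL6 BMP replicate 2 or 1), 0.58 ± 0.10 for Aqp4 (adjusted p = 0.000963), 0.58 ± 0.09 for Gja1 (adjusted p = 0.000531), 0.55 ± 0.08 for Slc1a2 (adjusted p = 0.000453), 0.53 ± 0.09 for Aldh1l1 (adjusted p = 0.0011) and 0.44 ± 0.09 for Aldoc (adjusted p = 0.00287). The BL6 BMP replicates, which enter the first and the last of these comparisons, were also the pair with the largest replicate difference, 12.4 in chi-square per degree of freedom. Each line is 1 derivation, so strain and derivation cannot be told apart. In 27 groups of 4 libraries (9 markers in 3 conditions), 0 libraries stood far from the rest, though each group holds both lines, so that a gap between lines widens its range.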

How the results depend on the processing

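The counts of called markers stayed within 1.5 times under every alternative run, at 8 for BMP and 9 for BMP/FGF, each set against EGF/FGF, and at 6 to 8 for BMP/FGF against BMP. Leaving out 1 library at a time gave 2 to 6 line differences in the change from EGF/FGF to BMP/FGF and 3 to 6 in the EGF/FGF level, and fewer libraries were then fitted. The log2 ratio of Slc1a2 to Slc1a3 lost its call with the replicate block, by sign flips of 4 pairs (2.08, 2.75 and 0.67, each p = 0.125, the smallest exact value), which 4 pairs cannot bring under the threshold. Replicate numbers did not pair the samples, with correlations of -0.0711 to 0.0529 between same-numbered deviations, and the replicate block changed none of the marker counts (8, 9 and 7). The ratio of Gjb6 to Gja1 was not run. Signs turned at markers that did not pass the test, and the cause was not tested. With BL6 alone these were Aldh1l1 in BMP against EGF/FGF (-0.032) and, in BMP/FGF against BMP, Gja1 (0.071) and S100b (-0.021). With library size only they were the line differences of the BMP change of Slc1a3 (0.021), of the BMP level of S100b (0.012) and of the BMP/FGF level of Aqp4 (-0.011). With 1 library left out, the line difference of the change to BMP ran from -0.016 to 0.22 for Aqp4 and from -0.060 to 0.034 for Slc1a3. That of the level ran from -0.17 to 0.10 for S100b in BMP, and it ran from -0.024 to 0.059 for Aqp4, -0.074 to 0.013 for Gja1 and -0.032 to 0.023 for Slc1a3 in BMP/FGF and -0.18 to 0.015 for Fabp7 in EGF/FGF. The BMP change of Aldh1l1 ran from -0.021 to 0.10. Of 1512 values of single markers under alternatives, 1435 kept direction and side of the threshold, 48 lost and 10 gained a call, and 19 turned sign. Depth limits S100b, at 10 to 55 counts per library.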

Other observations

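For each marker, the genes with the most similar log2 CPM profile over the 12 libraries were listed out of the 12466 whose mean reached 1 CPM. The libraries share 3 conditions, so high values of Pearson's r are common and describe these libraries only. Nfasc, Gbp6 and Selenop were nearest to Gfap (r from 0.998 to 0.999), and Gbp5, Daam2 and Selenop to Slc1a2 (r from 0.997 to 0.998). Selenop, which encodes a selenium transport protein, had 127, 671 and 1190.3 CPM in EGF/FGF, BMP and BMP/FGF. Lamp1, a lysosomal membrane protein, was among the nearest to both Aqp4 and Slc1a3, with Atg12 and Nfkbia for Aqp4 and Dlgap1 and Gpm6b for Slc1a3. Aldoc was nearest to Glud1, the mitochondrial glutamate dehydrogenase, at 493, 1684 and 2189 CPM, then to Efr3b and Tmem9b. Raver2, Erc1 and Naaa were nearest to Gja1, and Baalc, Dzip1 and Cd274 to S100b. Aldh1l1, with its level raised in BMP/FGF alone, was nearest to Tex2, Ifi44 and Lgals9 (r from 0.982 to 0.986). Ifi44, an interferon-induced gene, had 2.26, 2.37 and 16.2 CPM in the 3 conditions. Fabp7 was nearest to Idi1, an enzyme of sterol synthesis, at 725, 143 and 426 CPM, then to Hsd17b12 and Mettl15 (r from 0.988 to 0.992).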
